A study of Mus musculus with 12 samples.

Results

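The soleus of H6pd knockout (KO) mice was compared with the soleus of wild type (WT) mice. The members are the 3 arrays labelled KO soleus and the 3 labelled WT soleus, chosen by their sample titles, which makes 6 of the 12 arrays in the series. All mice were 4 weeks old, had been weaned and, per the design text, showed no overt myopathy on histology. The other 6 arrays hold the tibialis anterior (TA), 3 KO and 3 WT, of the same age. The labels call the 3 arrays of a group biological replicates. The sources used here do not give how the H6pd allele was disrupted, the strain or whether animals were pooled.

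H6pd encodes hexose-6-phosphate dehydrogenase, which sits in the lumen of the endoplasmic reticulum (ER), oxidises glucose-6-phosphate and makes NADPH there. This NADPH feeds the reductase activity of 11-beta-hydroxysteroid dehydrogenase 1, which regenerates active glucocorticoid. The soleus is a postural muscle rich in slow and fast oxidative fibres, which draw on mitochondria and fat, whereas the TA is mostly a fast muscle. When proteins misfold in the ER, the unfolded protein response raises chaperone transcription through ATF6 and XBP1 and amino acid and stress genes through ATF4 and CHOP.

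Each value is a log2 signal from 1 array, so a difference of 1 is a 2-fold difference in signal on the array, and a group mean under log2 4 is treated as background. Of the 13009 genes tested, 3389 had both soleus means under that level. The slow myosin gene Myh7 read 15.54, 15.27 and 15.23 in KO soleus, against 15.50, 15.48 and 15.42 in WT soleus, close to the table's highest value of 16.36. The arrays numbered 3 stood apart in both genotypes. The first principal component of the soleus arrays, with 47.2% of the variance, put them at 30.1 in KO and 37.1 in WT, while the other 4 arrays lay between -23.6 and -3.9. The second component, with 25.5%, held KO arrays from 7.7 to 30.3 and WT arrays from -20.9 to -7.6. Differences are therefore also given without the arrays numbered 3, and what sets those arrays apart was not tested.

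The H6pd probe set read 4.19, 4.41 and 6.10 in KO soleus, against 5.57, 6.12 and 7.11 in WT soleus. The third KO array lies among the WT arrays, so the groups overlap. The difference was -1.36 (SE 0.62, limma adjusted p = 0.577), and it was -1.54 without the arrays numbered 3. The sources used here do not say whether the probes lie in the disrupted part of the gene, so these values do not check the genotype labels. The 60 tested genes nearest to H6pd on the chromosome, 30 on either side in RefSeq order, had a median difference of -0.03. At an unadjusted p under 0.05, 1 was higher (1.67%) and 2 lower (3.33%), against 4.3% and 4.47% over all genes.

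At an adjusted p under 0.05, limma called 4 of the 13009 genes (0.0307%), 3 higher in KO soleus (0.0231%) and 1 lower (0.00769%). At an unadjusted p under 0.05 it placed 1140 genes (8.76%), 559 higher (4.3%) and 581 lower (4.47%). Differences lay above 0 for 6640 genes (51.0%) and below 0 for 6361 (48.9%). The 3 KO values did not overlap the 3 WT values for 1556 genes (12%), 765 higher (5.88%) and 791 lower (6.08%). Differences past 2-fold at that unadjusted p numbered 90, 39 higher and 51 lower. The count of 4 depends on single arrays: it was 30 without the first WT soleus array and 10 without the second KO soleus array. It was 360 when limma weighted arrays by their quality, and 0 when only the soleus arrays were fitted, where 930 genes had an unadjusted p under 0.05.

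Nmrk2, which encodes nicotinamide riboside kinase 2, a muscle enzyme of NAD synthesis, rose in KO soleus. It read 13.65, 14.03 and 14.23 in KO soleus, against 10.15, 9.11 and 11.20 in WT soleus. Every KO array stood more than 2 log2 units above the highest WT array. The difference was 3.82 (SE 0.45), a 14.1-fold higher signal (limma adjusted p = 0.0351), and it was 4.21 without the arrays numbered 3. Leaving out any 1 KO soleus array took its limma adjusted p to between 0.0503 and 0.0848, and over all 18 alternatives it ran from 0.00269 to 0.444.

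Gprasp1, a sorting protein for G protein-coupled receptors, rose to 9.42, 9.45 and 9.94 in KO soleus, against 8.31, 8.42 and 8.20 in WT soleus. The groups lie well apart, at 1.29 (SE 0.17, limma adjusted p = 0.0498). Without the arrays numbered 3 the difference was 1.07 and the limma adjusted p 0.317, within a range of 0.00836 to 0.444 over its alternatives. Dixdc1, a regulator of Wnt signalling, read 4.65, 4.58 and 4.42 in KO soleus, against 3.41, 3.44 and 3.61 in WT soleus, for a difference of 1.06 (SE 0.10, limma adjusted p = 0.00902). All its WT values are in the background, and with the WT mean set to log2 4 the rise was at least 0.55. Over its 17 alternatives the limma adjusted p ran from 0.000383 to 0.333, and it missed the threshold only in the fit of the soleus arrays alone.

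Alas1, the rate-limiting enzyme of haem synthesis in most tissues, fell in KO soleus. It read 10.77, 10.78 and 10.74 in KO soleus, against 11.40, 11.56 and 11.77 in WT soleus. The KO arrays are almost equal and all lie below the lowest WT array. The difference was -0.81 (SE 0.10, limma adjusted p = 0.0351). A dimmer probe set of the gene differed by -0.23 (adjusted p = 0.673). Without the arrays numbered 3 the difference was -0.70 and the limma adjusted p 0.295, within a range of 0.00269 to 0.444 over its alternatives.

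**Figure D1:**
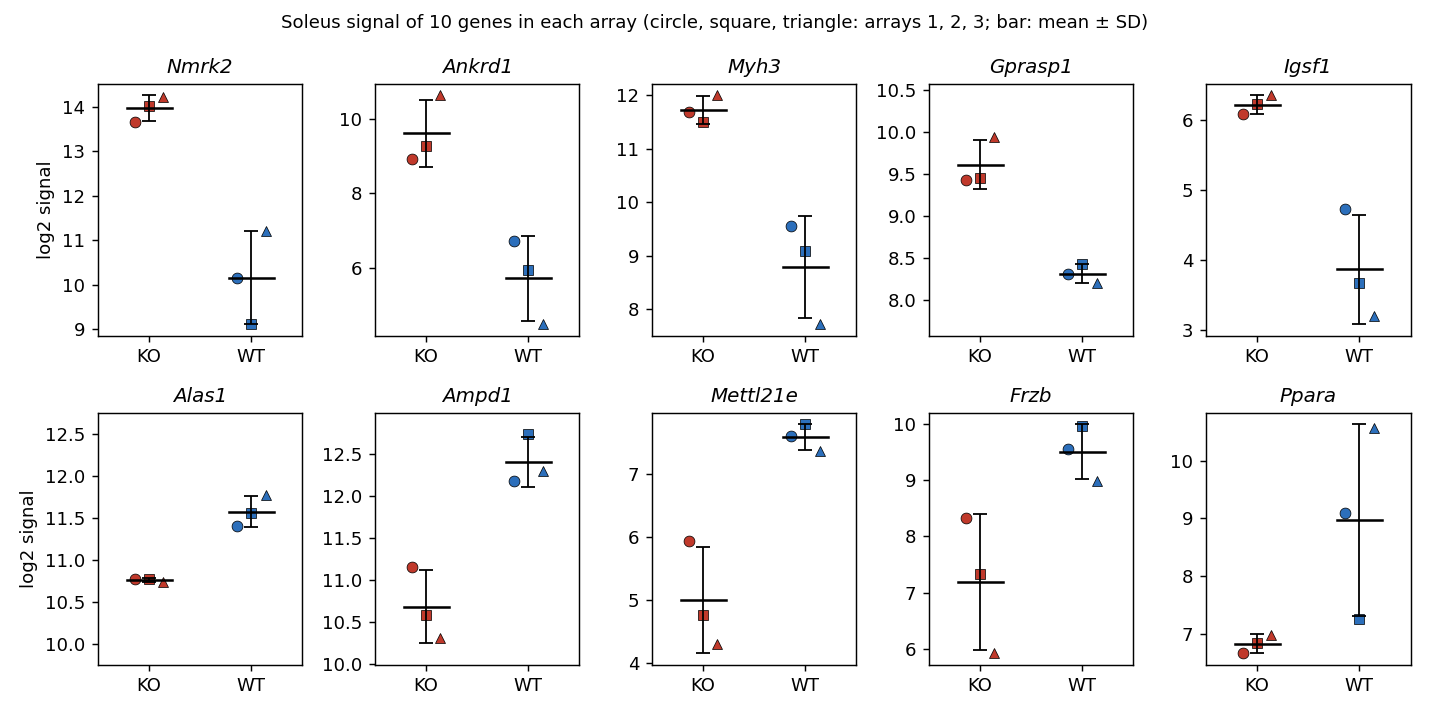
Log2 signal (y axis) of 10 genes in the 3 KO and the 3 WT soleus arrays; each symbol is 1 array, the wide bar the mean and the whiskers the SD. Nmrk2 has KO arrays from 13.65 to 14.23 and WT arrays from 9.11 to 11.20, and Alas1 has KO arrays from 10.74 to 10.78 and WT arrays from 11.40 to 11.77.

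Ankrd1 and Myh3 had large differences that missed the adjusted test. By level, separation and an unadjusted p under 0.01, 148 genes higher and 188 lower in KO soleus could be named, and the 12 with the largest differences on each side were taken. Ankrd1, a titin-binding protein that responds to mechanical load, read 8.93, 9.29 and 10.65 in KO soleus, against 6.72, 5.93 and 4.47 in WT soleus. The gap widens most in the arrays numbered 3, where it was 6.19, against 2.78 without them. Its overall difference was 3.92 (SE 0.68, limma adjusted p = 0.113), and a dimmer probe set differed by 3.13.

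Myh3, the embryonic myosin heavy chain, read 11.68, 11.49 and 12 in KO soleus, against 9.55, 9.09 and 7.72 in WT soleus. The KO arrays all lie far above the WT arrays, and the difference was 2.94 (SE 0.56, limma adjusted p = 0.127). Myh8, the neonatal myosin, did not separate the groups: it read 8.38, 5.26 and 5.18 in KO soleus, against 7.25, 7.08 and 6.84 in WT soleus. Igsf1 read 6.08, 6.23 and 6.35 in KO soleus, against 4.73, 3.67 and 3.20 in WT soleus, where its mean was in the background. The fitted difference of Igsf1 was 2.35 (SE 0.37, limma adjusted p = 0.104), and at least 2.22 with the WT mean set to log2 4. A dimmer probe set of the gene, with a mean of 3.09, differed by 0.01.

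The other 7 higher genes of the 12 differed by 1.14 to 1.79, with limma adjusted p-values from 0.127 to 0.315. They were the ribosomal protein gene Rpl14 (1.79), the muscle Na,K-ATPase beta-family member Atp1b4 (1.53), the arginine deiminase Padi2 (1.38), the non-coding RNA genes Snhg4 (1.36) and Snhg10 (1.14), the natriuretic peptide clearance receptor Npr3 (1.33) and the homeobox gene Pbx3 (1.15). The Rpl14 probe set read only 4.92, 4.46 and 4.33 in WT soleus, near the background level.

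On the lower side stood Mettl21e, Ppara, Ampd1 and Frzb. Mettl21e, a protein lysine methyltransferase gene of muscle, read 5.93, 4.76 and 4.29 in KO soleus, against 7.59, 7.78 and 7.36 in WT soleus, with a difference of -2.58 (SE 0.51, limma adjusted p = 0.157). Ppara, a nuclear receptor that drives fatty acid oxidation genes, read 6.66, 6.84 and 6.98 in KO soleus, against 9.10, 7.25 and 10.57 in WT soleus. The WT arrays of Ppara differ widely among themselves, and the difference was -2.14 (SE 0.63, adjusted p = 0.313). Ampd1, the muscle AMP deaminase, read 11.16, 10.59 and 10.31 in KO soleus, against 12.18, 12.74 and 12.30 in WT soleus.

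Ampd1 separates by more than 1 log2 unit, at -1.72 (SE 0.54, limma adjusted p = 0.33). Frzb, a secreted Wnt antagonist, read 8.32, 7.33 and 5.92 in KO soleus, against 9.56, 9.97 and 8.99 in WT soleus (difference -2.32, adjusted p = 0.228). The remaining lower genes of the 12 differed by -2.15 to -1.44. Among them are Ldhd, the D-lactate dehydrogenase (-1.49), Etfbkmt, which methylates the electron transfer flavoprotein beta subunit (-1.49), Plcd4, a phospholipase C (-1.84), the zinc transporter Slc30a2 (-1.75) and the aspartoacylase Aspa (-1.44). Fer1l6, whose KO mean was in the background, had a bounded difference of -2.05 with that mean set to 4. The others were Atcayos (-1.83) and Tspan8 (-1.56).

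**Figure D2:**
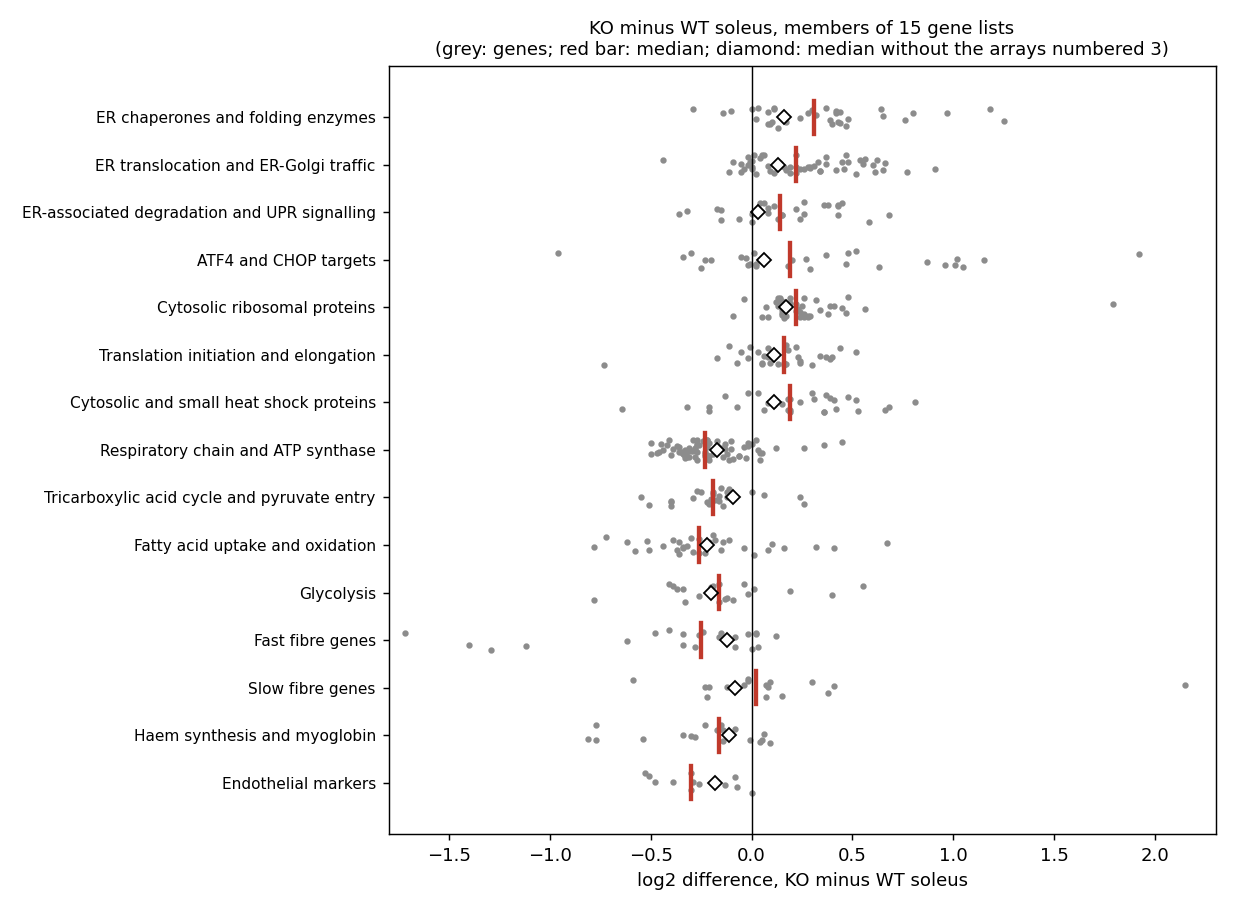
Log2 difference, KO minus WT soleus (x axis), of the members of 15 gene lists (rows); each grey point is a gene, the red bar the median over all 6 arrays and the diamond the median without the arrays numbered 3. The ER and ribosomal lists lie mostly right of 0 and the mitochondrial lists left of 0, with medians from 0.31 for ER chaperones to -0.30 for endothelial markers.

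Genes of ER folding were mostly higher in KO soleus, with none past the adjusted test. Of 36 ER chaperones and folding enzymes tested, 32 were above 0 and 4 below, 10 reached an unadjusted p under 0.05 higher and 0 lower, and the median difference was 0.31. Over all genes the median was 0.00. The 10 make a share of 27.8%, against 4.3% over all genes and 6.14% of genes at log2 6 or more in KO or WT soleus. The median of the chaperone list was 0.16 without the arrays numbered 3 and 0.53 in those arrays alone, so much of its size comes from them. The list's median deviation from the soleus mean was 0.00, 0.06 and 0.40 in the KO arrays, against -0.05, -0.23 and -0.18 in the WT arrays.

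Hspa5 encodes BiP, the main ER Hsp70, which also holds the stress sensors inactive. It read 12.84, 13.36 and 14.14 in KO soleus, against 13.00, 12.09 and 12.85 in WT soleus, and its first KO array lies below the first and the third WT array. The difference was 0.80 (SE 0.33, limma adjusted p = 0.52). Manf, a secreted protein of the stressed ER, read 10.93, 11.83 and 12.11 in KO soleus, against 11.06, 10.10 and 9.94 in WT soleus, also with 1 overlap (1.25, adjusted p = 0.359). Pdia6, a disulfide isomerase, separated the groups, at 9.01, 9.55 and 9.83 in KO soleus, against 8.76, 8.27 and 8.47 in WT soleus (0.97, adjusted p = 0.294).

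Some promoters of the ER chaperone list hold the ER stress response element, which NF-Y and ATF6 are known to bind. The letters CCAAT, then 9 bases of any kind, then CCACG were searched on both strands from 250 bases before to 50 bases after each start in the RefSeq promoter table (GRCm38.p6). The element occurs in 8 of 31 ER chaperone genes with a promoter there (25.8%), against 37 of 27025 genes in all (0.137%). A match describes the sequence and is not a measured binding site. The share depends on the promoters of the list alone and would be the same whatever the knockout did. The stretches below are shown because they carry the element in genes described here; capitals mark its outer parts, and the soleus difference stands in the sentence after them.
Hspa5, chr2:34772005-34772063, plus strand: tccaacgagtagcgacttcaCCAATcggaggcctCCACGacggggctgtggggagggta
Pdia6, chr12:17266471-17266529, plus strand: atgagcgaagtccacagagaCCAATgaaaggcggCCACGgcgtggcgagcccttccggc
Creld2, chr15:88819500-88819558, minus strand: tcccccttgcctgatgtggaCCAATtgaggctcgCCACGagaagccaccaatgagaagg
Hsp90b1, chr10:86705618-86705676, minus strand: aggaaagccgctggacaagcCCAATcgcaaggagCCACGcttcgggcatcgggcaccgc
Canx, chr11:50325780-50325838, minus strand: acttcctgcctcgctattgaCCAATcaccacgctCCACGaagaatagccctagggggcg
Ero1b, chr13:12565662-12565720, minus strand: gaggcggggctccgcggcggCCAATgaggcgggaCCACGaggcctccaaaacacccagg
The log2 difference in soleus was 0.80 for Hspa5, 0.97 for Pdia6, 0.76 for Creld2, 0.65 for the Grp94 gene Hsp90b1, 0.43 for the lectin chaperone gene Canx and 0.03 for the oxidase gene Ero1b. Dnajc3 (0.44) and Calr (0.32) also hold the element. Manf (1.25) and Dnajb9 (1.18), with larger differences, are not among the 8 genes. A link between the element and the soleus differences was not tested.

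Genes that move proteins into and out of the ER were also mostly higher. Of 57 tested, 45 were above 0. At an unadjusted p under 0.05, 13 were higher (22.8%) and 1 lower (1.75%), against 4.3% and 4.47% over all genes. Higher with no overlap were 16, a share of 28.1% against 5.88% of all genes. Among genes at log2 6 or more in KO or WT soleus that share was 8.28%. The median was 0.22, with 0.13 without the arrays numbered 3 and 0.41 in those arrays alone. Its median deviations were 0.10, 0.06 and 0.21 in the KO arrays, against -0.03, -0.05 and -0.23 in the WT arrays, and every KO array lies above every WT array, as for the chaperones. Sec11c, a signal peptidase subunit, read 8.75, 9.12 and 9.57 in KO soleus, against 8.42, 8.05 and 8.24 in WT soleus (0.91, SE 0.20, limma adjusted p = 0.196). Sec22b (0.77), Sec61b (0.65) and Kdelr2 (0.56) followed, with adjusted p-values from 0.244 to 0.272.

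The other arms of the stress response had smaller medians. Degradation and sensor genes had a median of 0.14 over 28 tested (0.03 without the arrays numbered 3). At an unadjusted p under 0.05, 3 were higher (10.7%) and 1 lower (3.57%). ATF4 and CHOP targets had a median of 0.19 over 30 tested, with 4 higher (13.3%) and 0 lower. Over all genes 4.3% were higher and 4.47% lower at that p. The median deviation of the ATF4 and CHOP targets was 0.55 in the third KO array and -0.16 and -0.12 in the other KO arrays, against -0.20, -0.15 and -0.09 in WT soleus. Mthfd2, a mitochondrial folate enzyme, read 6.02, 7.40 and 9.44 in KO soleus, against 5.95, 5.05 and 6.09 in WT soleus (1.92, SE 0.81, limma adjusted p = 0.54). Ddit3, which encodes CHOP, differed by 0.96 overall and by 0.56 without the arrays numbered 3.

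Most cytosolic ribosomal protein genes were higher by a small amount. Differences ran from -0.09 to 1.79, the highest being that of Rpl14, whose probe set was dim. Of 80 listed genes 43 could be tested, and 41 of these were above 0. At an unadjusted p under 0.05, 20 were higher (46.5%) and 0 lower, against 4.3% higher over all genes. Higher with no overlap were 25 (58.1%), against 5.88% over all genes. For comparison, of the 527 genes with a soleus mean of log2 12 or more, 10.2% were higher at that p. The median was 0.22, and 0.17 without the arrays numbered 3. The median deviations were 0.10, 0.12 and 0.13 in the KO arrays, against -0.07, -0.06 and -0.17 in the WT arrays.

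Rps26, a small subunit protein, read 13.07, 13.10 and 13.15 in KO soleus, against 12.82, 12.74 and 12.60 in WT soleus. The arrays of each genotype lie close together and apart from the other genotype, at 0.39 (SE 0.08, limma adjusted p = 0.174). Rpl4, of the large subunit, differed by 0.45 and the initiation factor subunit Eif3e by 0.39. Host genes of small nucleolar RNAs, grouped after their values were seen, lay above 0 in 10 of 11, with a median of 0.83. At an unadjusted p under 0.05, 7 were higher (63.6%), against 4.3% over all genes. Higher with no overlap were 9 (81.8%), against 5.88% over all genes. Snhg6 read 9.07, 9.37 and 9.34 in KO soleus, against 8.51, 8.30 and 8.24 in WT soleus (0.91, adjusted p = 0.0925). Npm1, a nucleolar protein of ribosome assembly, differed by 0.75 (SE 0.16, adjusted p = 0.178).

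**Figure D3:**
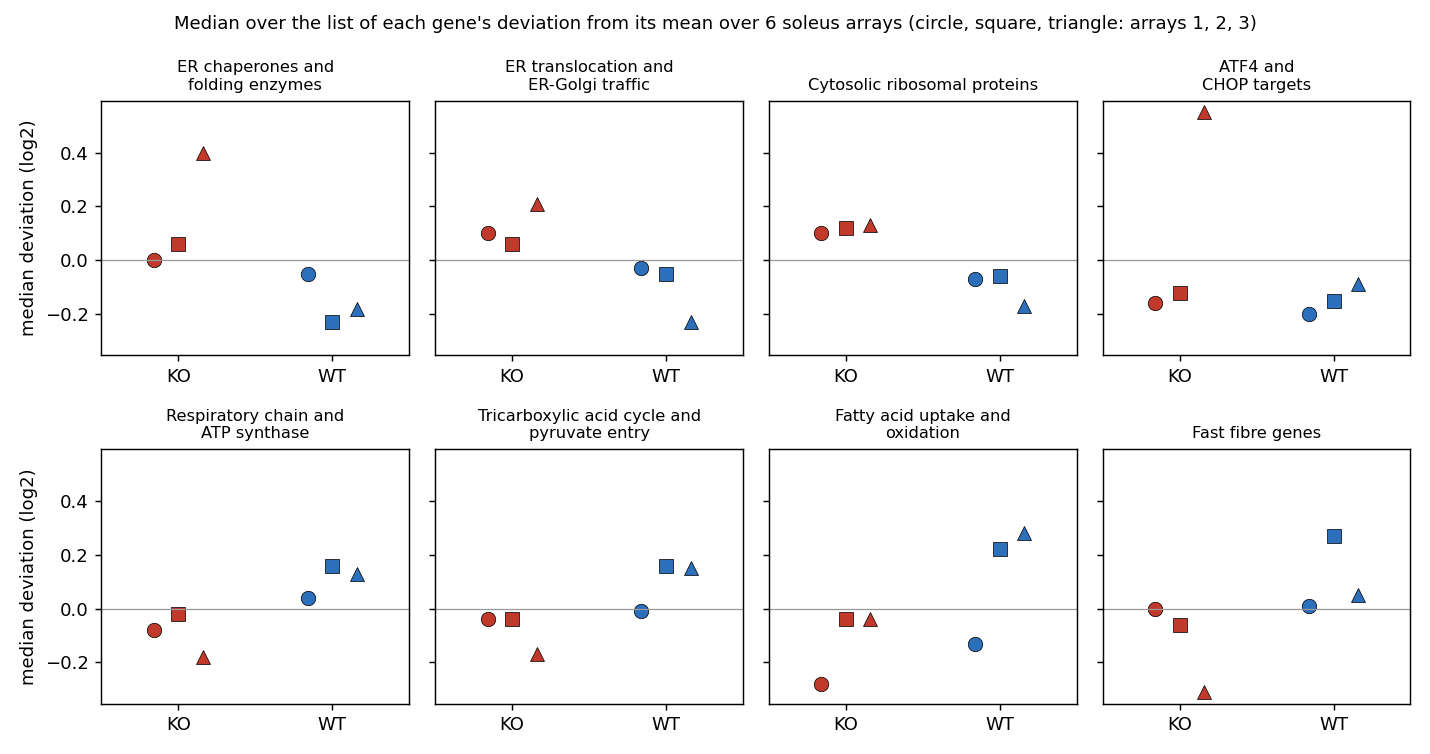
Median, over the genes of each of 8 lists, of the deviation from the gene's mean over the 6 soleus arrays (y axis, log2), with KO arrays left and WT arrays right. Ribosomal proteins run from 0.10 to 0.13 in KO and from -0.17 to -0.06 in WT, whereas ATF4 and CHOP targets reach 0.55 in 1 KO array only.

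Genes of the respiratory chain were mostly lower in KO soleus. Of 74 tested, 64 were below 0 and 10 above. At an unadjusted p under 0.05, 36 were lower (48.6%) and 1 higher, against 4.47% lower over all genes and 15.4% among the 527 brightest. No member passed the adjusted test. The median was -0.23, and -0.17 without the arrays numbered 3. The median deviations were -0.08, -0.02 and -0.18 in the KO arrays, against 0.04, 0.16 and 0.13 in the WT arrays. In bulk muscle, fewer mitochondria-rich fibres and less of these RNAs per fibre cannot be told apart.

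The complexes are given one by one, and differences between them were not tested. In complex I, which takes electrons from NADH, 30 of 32 genes were below 0, with a median of -0.27. At an unadjusted p under 0.05, 20 of the 32 were lower (62.5%), against 4.47% over all genes and 15.4% among the 527 brightest. All 4 genes of complex II were below 0, with 1 lower at that p (25%). Complex III with cytochrome c had 8 of 10 below 0, 4 lower at that p (40%), and a median of -0.25. ATP synthase had 14 of 15 below 0, 6 lower at that p (40%), and a median of -0.22. Complex IV, cytochrome c oxidase, had 8 of 13 below 0 and 5 above, with a median of -0.06. At that p, 5 of its genes were lower (38.5%) and 1 higher (7.69%).

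Ndufa6, a complex I subunit, read 12.25, 12.34 and 12.09 in KO soleus, against 12.60, 12.71 and 12.88 in WT soleus (-0.50, SE 0.10, limma adjusted p = 0.171). Uqcrc1, a core subunit of complex III, read 12.95, 13.00 and 12.98 in KO soleus, against 13.19, 13.56 and 13.66 in WT soleus (-0.50, adjusted p = 0.185). Both genes separate the groups fully. The ATP synthase genes Atp5j and Atp5j2 differed by -0.31 and -0.28, and the mitochondrial ribosomal gene Mrpl23 by -0.83. Over 98 genes of the mitochondrial ribosome and import the median was -0.09. At an unadjusted p under 0.05, 17 of these were lower (17.3%) and 0 higher, against 4.47% lower over all genes.

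Most genes of the upstream fuel pathways lay below 0, with fewer at an unadjusted p under 0.05. Of 25 genes of the tricarboxylic acid cycle 21 were below 0 and 3 were lower at that p (12%). The share was 4.47% over all genes and 15.4% of the 527 brightest, which include genes of this list and of the respiratory chain. Their median was -0.19, and -0.09 without the arrays numbered 3. Of 33 genes of fatty acid uptake and oxidation 26 were below 0 and 6 were lower at that p (18.2%), with a median of -0.26, and -0.22 without those arrays. Of 21 glycolytic genes 17 were below 0, 4 at that p (19%), with a median of -0.16. Eno3 and Pgam2, both lower at that p, also count in the fast fibre list below. The last 2 shares stand against 4.47% over all genes and the same 15.4%. None of these genes passed the adjusted test.

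Echs1, which hydrates enoyl-CoA in beta oxidation, read 11.08, 11.19 and 10.81 in KO soleus, against 11.46, 11.73 and 11.62 in WT soleus (-0.58, SE 0.14, limma adjusted p = 0.244). Eno3, the muscle enolase, read 14.79, 14.84 and 14.68 in KO soleus, against 15.02, 15.19 and 15.12 in WT soleus (-0.34, SE 0.07, adjusted p = 0.171). Both are small differences with no overlap. Sirt3, a mitochondrial deacetylase, differed by -0.64 (adjusted p = 0.171). The glycogen phosphorylase kinase genes Phka1 and Phkg1 differed by -0.62 and -1.13, with adjusted p-values of 0.134 and 0.265.

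**Figure D4:**
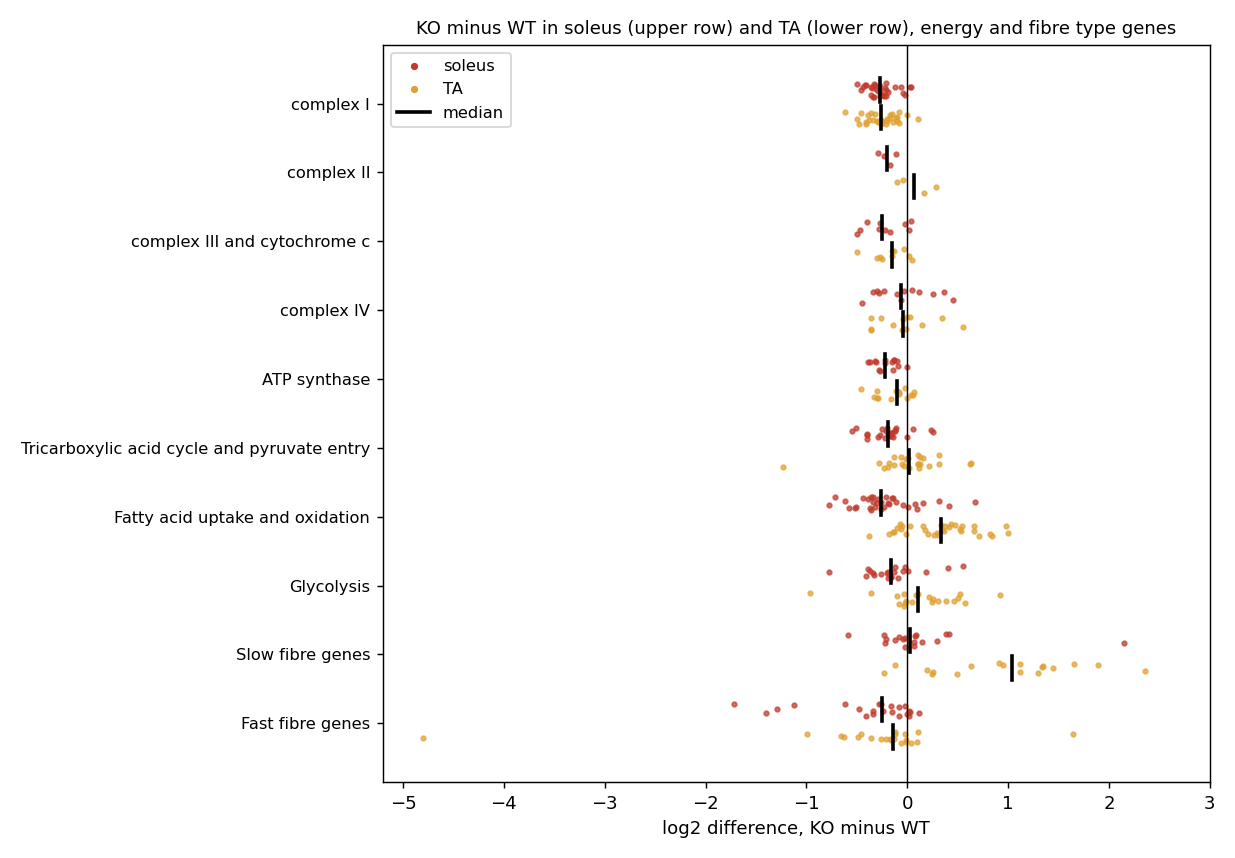
Log2 difference, KO minus WT (x axis), of genes of energy metabolism and fibre type in soleus (red, upper row of each pair) and TA (yellow, lower row); each point is a gene and the black bar the median. Fatty acid genes have a median of -0.26 in soleus and 0.34 in TA, and slow fibre genes 0.02 in soleus and 1.03 in TA.

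Markers of fast fibres were mostly lower and markers of slow fibres were not. Of 22 fast fibre genes 17 were below 0, with a median of -0.25 and -0.12 without the arrays numbered 3. At an unadjusted p under 0.05, 7 were lower (31.8%) and none higher, against 4.47% lower over all genes and 15.4% among the 527 brightest. Among the lower genes, Eno3 and Pgam2 also count in the glycolytic list and Atp2a1 in the calcium handling list, so these lists are not separate. The summed linear signal of the fast list was 512271 to 576763 in KO soleus, against 581680 to 648815 in WT soleus. These ranges lie close together without overlap. The mean log2 signal of the list did overlap, at 13.6, 13.52 and 12.91 in KO soleus, against 13.55, 14.06 and 13.62 in WT soleus. The 18 slow fibre genes split 9 to 9 with a median of 0.02, and their summed signal overlapped, at 438706 to 498455 in KO and 447038 to 491863 in WT. Among the adult myosins the difference was -0.28 for Myh1, 0.02 for Myh2 and -0.12 for Myh7, whose signals lie near the top of the table, so little can be read from these small values. Myh4, the fast IIb myosin, differed by 0.12, and by -0.73 to 1.18 with 1 array left out. The part of fibre makeup in the metabolic differences was not tested.

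Myoz1, which anchors calcineurin at the Z-disc of fast fibres, read 12.15, 12.04 and 11.49 in KO soleus, against 12.57, 13.25 and 13.21 in WT soleus (-1.12, SE 0.21, limma adjusted p = 0.127). Atp2a1, the fast calcium pump SERCA1, read 14.65, 14.56 and 14.42 in KO soleus, against 14.79, 15.13 and 15.13 in WT soleus (-0.48, adjusted p = 0.224). Both separate the groups. Pln, phospholamban, the inhibitor of the slow and cardiac calcium pump, read 5.64, 7.03 and 8.75 in KO soleus, against 4.56, 4.79 and 5.61 in WT soleus, with a gap of almost nothing between the closest arrays (2.15, SE 0.72, adjusted p = 0.379). Cacna1s, the voltage sensor of the T-tubule, differed by -1.01 (adjusted p = 0.316).

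The haem list, Alas1 included, lay below 0 in 14 of 18 genes, with a median of -0.16. At an unadjusted p under 0.05, 5 were lower (27.8%), against 4.47% of all genes. Lower with no overlap were 8 (44.4%), against 6.08% of all genes. Among genes at log2 6 or more in KO or WT soleus that share was 7.71%. Myoglobin, Mb, read 15.82, 15.80 and 15.74 in KO soleus, against 15.94, 16.05 and 16.05 in WT soleus (-0.23, limma adjusted p = 0.387). The erythroid list had 4 testable genes, and its summed signal was 6128 to 8961 in KO soleus, against 9835 to 16956 in WT soleus, with most of it from Tfrc, a transferrin receptor that muscle also makes. Alas2, the erythroid counterpart of Alas1, read 5.13, 4.09 and 2.55 in KO soleus, against 5.77, 5.14 and 3.40 in WT soleus. The part of blood RNA in the haem difference was not tested.

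Glucocorticoid-responsive genes, of interest because of the steroid enzyme that H6pd serves, had a median of -0.25 over 31 tested, with 23 below 0. With 1 array left out the median ran from -0.51 to 0.09, so its direction turns. Only 2 were lower at an unadjusted p under 0.05, a share of 6.45% against 4.47% over all genes, so this count lies near the background. They were Gadd45g (-0.99) and Sgk1 (-0.81), with limma adjusted p-values of 0.29 and 0.295. Among antioxidant enzymes Mgst1, a microsomal glutathione transferase, read 12.11, 11.95 and 12.06 in KO soleus, against 12.89, 13.11 and 13.23 in WT soleus (-1.04, adjusted p = 0.228).

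Markers of other cell types were also read. Endothelial markers were below 0 in 11 of 12 (median -0.30, summed signal 3469 to 4975 in KO and 4507 to 5773 in WT). At an unadjusted p under 0.05, 2 of these were lower (16.7%), against 4.47% over all genes. Myeloid markers had a median of 0.06, but Cd68 read 5.56, 6.39 and 9.68 in KO soleus, against 5.60, 5.58 and 5.58 in WT soleus, so 1 KO array carries that difference. Fibroblast, tendon, nerve and satellite cell markers had medians from 0.02 to 0.07. Smooth muscle and pericyte markers were below 0 in 10 of 11 (median -0.12), and cycling cell markers were above 0 in 16 of 20 (median 0.06). The 5 brown adipocyte markers, which include the respiratory chain genes Cox7a1 and Cox8b, had a median of -0.28 and a summed signal of 37049 to 39673 in KO soleus, against 45053 to 54421 in WT soleus, with no overlap. The part of these cell types in the differences above was not tested.

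The other lists were less one-sided or held few genes at an unadjusted p under 0.05. Over all genes 4.3% were higher and 4.47% lower at that p, and among the 527 brightest 10.2% and 15.4%. Among 32 cytosolic and small heat shock genes 5 were higher (15.6%) and 3 lower (9.38%), with a median difference of 0.19. Among 31 translation factors 3 were higher (9.68%) and 1 lower (3.23%), with a median of 0.16. Cytosolic aminoacyl-tRNA synthetases had a median of 0.19 with 2 higher (11.1%) and 0 lower of 18. That median ranged from -0.08 to 0.34 with 1 array left out. Calcium handling genes had a median of -0.23 with 2 higher (7.14%) and 3 lower (10.7%) of 28. Mitochondrial regulators had -0.20 with 0 higher and 4 lower (14.8%) of 27. With 1 array left out the regulators ran from -0.30 to -0.04. Glycogen genes had a median of -0.13 with 1 higher (5.88%) and 3 lower (17.6%) of 17, and -0.10 to 0.06 with 1 array left out. The proteasome list had 4 higher (11.4%) and 4 lower (11.4%) of 35, and the 17 clock genes tested had none at that p.

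The soleus and TA responses were set side by side in the same fit, over different arrays. In TA limma called 368 genes (2.83%) at an adjusted p under 0.05, 185 higher (1.42%) and 183 lower (1.41%). The difference of the KO effect, soleus minus TA, passed for 5 genes (0.0384%), with 743 (5.71%) at an unadjusted p under 0.05. Of those 5 genes, 4 had both soleus means in the background. ER chaperones had a median of 0.31 in soleus and 0.67 in TA, where 11 passed the test. Ribosomal genes had 0.22 and 0.23, and the respiratory chain -0.23 and -0.16.

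Fatty acid genes had a median of -0.26 in soleus and 0.34 in TA, and 11 of 33 had a lower effect in soleus at an unadjusted p under 0.05, with 0 higher. Slow fibre genes had a median of 0.02 in soleus and 1.03 in TA, with 5 of 18 lower in soleus and 0 higher at that p. For comparison, 339 of all 13009 genes and 39 of the 527 brightest had a lower effect in soleus at that p. No fatty acid or slow fibre gene passed the adjusted test of the difference. Nmrk2 differed by 3.82 in soleus and 1.92 in TA, and the difference of 1.89 (SE 0.64) did not pass (limma adjusted p = 0.744). Its KO means were 13.97 in soleus and 14.52 in TA, and its WT means 10.15 and 12.6. Every KO TA array read 14.52.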

How the data were processed

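Total RNA from soleus and TA was hybridised to 12 one-colour Affymetrix arrays. The authors deposited log2 signal for 45101 probe sets; the submitters' processing notes name MAS5 with no version, and the summary method, build and scaling are not given in the sources used here. Number of arrays limits precision: the median SE of a soleus difference was 0.18. Arrays were quantile normalized, and probe sets above the 40th percentile (log2 2.76) on at least 3 of 12 arrays were kept. The brightest probe set with 1 symbol stood for each gene, giving 13009 genes. The test was limma 3.58.1 under R 4.3.3 (lmFit on 4 group means, eBayes with trend, 2-sided, Benjamini-Hochberg at 0.05). An exact test of 3 against 3 cannot go below p = 0.1. The limma p-values set a difference against a spread between arrays that is estimated over all 4 groups. The spread behind a soleus p-value therefore also comes from the TA arrays. The fit was tested on simulated data with independent noise in each array. Those data lack what the arrays numbered 3 share, so the test does not give the rate of false calls here.

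The members and the 46 gene lists were chosen with earlier results of these data known. Genes named are H6pd, those past the test, the 12 highest and 12 lowest differences with an unadjusted p under 0.01, no overlap and a higher mean of at least log2 6, and up to 4 of smallest p per list, of which some are given. Hspa5, Hsp90b1, Dnajc3, Creld2, Ero1b, Canx, Calr, the Myh genes, the Snhg genes and Npm1 were chosen after their values were seen. For the difference of effects, genes past its test are given. Linear signals were summed for marker lists. Promoters are from RefSeq (GRCm38.p6). Alternatives tried concern scaling, filter, pseudocount, probe sets, variance model, array weights, pairing and left-out arrays.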

Additional observations from a re-analysis of the deposited data

Results flagged for a closer look

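The KO effect differed between soleus and TA, by limma's test of the difference of effects, for 5 genes. For Mss51, a mitochondrial protein gene of muscle, the difference, soleus minus TA, was 3.61 (SE 0.44, limma adjusted p = 0.0289), with -0.05 in soleus and -3.66 in TA. The other 4 genes had both soleus means in the background, so they have no measured soleus effect to set against TA. Their fitted differences of effects were 5.55 for 2310065F04Rik, 3.59 for Prima1, -0.61 for Arv1 and -1.50 for Bhlha15. In TA, 2310065F04Rik averaged 3.26 in KO, also in the background, and 9.42 in WT, so it was lower in KO TA by at least 5.42. Prima1, which anchors acetylcholinesterase, averaged 4.27 in KO TA and 8.03 in WT TA. Arv1 lay in the background in TA as well, at 3.61 in KO and 2.97 in WT, so its fitted value has no measured level behind it. Bhlha15 averaged 4.02 in KO TA, at the edge of the background, and 2.52 in WT TA, which bounds its TA difference at only 0.02.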

How the results depend on the processing

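The 4 soleus calls became 1 with no filter, with the mean of a gene's probe sets and with a robust fit, 2 with no variance trend, 360 with array weights and 0 with soleus arrays only. Leaving out 1 array gave 3 to 30. The 5 genes whose effect differed between muscles became 3 with median centring or no filter, 1 with a mean above log2 5 or no trend, 10 with array weights and 8 without the arrays numbered 3. Leaving out 1 array gave 1 to 20. The cause was not tested. With the replicate number as a block, 4 soleus genes passed, 3 of them shared with the 4 above, and 1793 genes had an unadjusted p under 0.05. Deviations of equal numbers correlated at 0.43, 0.09 and 0.61. Those of unlike numbers ran from -0.53, for KO 1 with WT 3, to 0.29, for KO 2 with WT 1. Numbers 1 and 3 thus matched their own number best, and number 2 did not. The labels do not say that equal numbers belong together, so the main fit does not pair them. It therefore leaves out any structure that equal numbers share, and what that structure is was not tested. The median of the tricarboxylic acid list was -0.09 and of the slow fibre list -0.08 without the arrays numbered 3, and of the ribosomal list between 0.15 and 0.23 with 1 array left out. On the table as deposited 60.3% of genes lay above 0, against 51.0%, and 55.6% of unadjusted calls were higher, against 49.0%. Respiratory chain medians ran from -0.28 to -0.17 and ER chaperone medians from 0.16 to 0.37 over 16 alternatives.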
